A study of Mus musculus with 16 samples.

Results

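Ependymal cells of the mouse spinal cord are described from the 271 cells that the deposited cell table places in cluster 13, which the authors named Unk, of 18203 cells in all (1.49%). The cluster was taken as deposited, and Tmem212, Ccdc153, Foxj1 and Cfap299 served as its markers. Ependymal cells line the central canal and carry motile cilia that move cerebrospinal fluid. Their axonemes are built from dynein arms, radial spokes and a central pair of microtubules, under transcription factors that include Foxj1 and the Rfx family. After injury of the mouse spinal cord, cells around the canal are known to divide and to give rise to scar-forming astrocytes.

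The study sequenced single cells from spinal cord around a lesion in mice that lack the Wnt receptor Ryk in cells with an active GFAP promoter. Knockout mice carried Rykfl/fl,GFAPcreERT2 (cKO) and controls Ryk+/+,GFAPcreERT2 (WT), so that the tamoxifen-induced Cre was present in both genotypes. Mice were 8-10 weeks old and were taken uninjured (called Sham in the sample labels) or 1, 7 or 14 d after spinal cord injury, with 2 mice for each genotype and stage, 16 mice in all and 1 library per mouse. Cre was driven by the GFAP promoter, and whether the ependymal cells recombined was not tested.

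Features of the libraries bear on every value that follows. In 6 mice, all of replicate 2, the names of the cells give another condition than the sample title: WT uninjured is named as cKO uninjured, cKO uninjured as WT 7 d, WT 1 d as WT 14 d, WT 7 d as WT 1 d, WT 14 d as cKO 14 d, and cKO 14 d as cKO 7 d. The condition column of the deposited cell table follows the titles in all 16 mice, and the titles were used, with the cell names as an alternative. Replicate 1 of WT 1 d, cKO 1 d, WT 7 d and cKO 7 d share cell barcodes with each other: of 341 pairs of cells with the same barcode in these 4 libraries, 315 (92.4%) lay in the same cluster, against 10 of 54 pairs (18.5%) elsewhere. Of the ependymal cells, 21 had a barcode found in another library, 20 of them among the 102 ependymal cells of these 4 libraries, and they had a median of 362 UMIs and held 2.14% of the ependymal UMIs. WT 1 d replicate 2 held 1 cell, not an ependymal cell, and gives no value.

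Ependymal cells were found in 15 mice, with 26 cells uninjured, 69 on day 1, 87 on day 7 and 89 on day 14 after injury. The lowest number in these 15 mice was 2 cells (cKO uninjured replicate 1) and the highest 32 cells (WT 14 d replicate 2). An ependymal cell had a median of 1707 UMIs (225 to 84531) and 1081 genes, against 1168 UMIs and 691 genes in the other cells. Depth differed between mice, from a median of 501 UMIs in WT 1 d replicate 1 to 5253.5 in WT 14 d replicate 2 among the mice with at least 10 ependymal cells. WT 14 d replicate 2 alone held 419820 of the 1150919 ependymal UMIs (36.5%), so pooled levels weigh this mouse most. The share of mitochondrial UMIs had a median of 3.79%, against 3.06% in the other cells.

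Ryk, the gene deleted in the knockout, was read from 100 UMIs in 48 ependymal cells. It was found in 17.7% of these cells against 13.1% of the other cells, at median depths of 1707 and 1168 UMIs, and in 9.66% against 5.70% after thinning every cell with at least 1000 UMIs to 1000. The WT uninjured mice held 4 and 2 Ryk UMIs, WT mice at 1 d (1 mouse) held 1, at 7 d 3 and 4, and 12 and 41 were read at 14 d. The cKO uninjured mice held 1 and 3, those at 1 d held 0 and 4, at 7 d 4 and 7, and 2 and 12 were read at 14 d. As CPM, the WT mice lay between 61.2 and 152 CPM, and the cKO mice between 0 and 109 CPM, so the genotypes overlapped. In cKO 1 d replicate 1, 0 UMIs in 26 cells left a level of up to 158 CPM (3 counts) undetectable. A read from the 3′ end of the Ryk transcript need not cover the deleted exons, and the deletion was not checked by these values.

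The label was checked against the 4 markers. Tmem212, which encodes a transmembrane protein, was found in 56.8% of the ependymal cells and 0.362% of the other cells, with 1047 CPM against 1.36 CPM (a 770-fold higher level) and 579, 1047 and 1840 CPM as the lowest, median and highest of the 10 mice with at least 10 ependymal cells. Ccdc153, a coiled-coil component of the axonemal regulatory complex, was found in 43.9% against 0.173%, with 245, 680 and 1384 CPM in the same mice. Foxj1, the master transcription factor of motile cilia, was found in 32.1% against 0.892%, with 176, 370 and 702 CPM. Cfap299, a cilia- and flagella-associated gene, was found in 71.6% against 1.99%, with 653, 1659 and 2599 CPM. Each of the 4 genes was thus detected in these cells in all 10 mice, and was higher there than in the other cells. Thinned to 1000 UMIs per cell (176 ependymal and 9877 other cells), Tmem212 was still found in 47.7% against 0.152%, and Foxj1 in 16.5% against 0.496%, so the shares also stood apart at equal depth. At least 1 marker UMI was present in 236 of 271 ependymal cells (87.1%) and in 3.27% of the other cells, and at least 2 markers in 167 ependymal cells and 25 other cells, 17 of them neurons. The 35 ependymal cells with no marker UMI had a median of 904 UMIs, and the 59 cells with all 4 markers a median of 7041 UMIs. The cluster was made from these same values, so none of this is a test.

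Markers of other classes ran from 0 to levels near or above those of the other cells. Choroid plexus, the other ciliated lining of the cerebrospinal fluid, was checked through 5 genes: Ttr, Kl and Kcne2 were at 0, while the folate receptor gene Folr1 had 123 UMIs and was found in 18.8% of ependymal cells against 0.134% of other cells, and Clic6 had 8 UMIs in 3 cells. Folr1 and Clic6 had their highest level among the 17 clusters here. Of the markers of other ciliated epithelia, Scgb1a1, Krt18 and Foxa1 were at 0 and Epcam had 3 UMIs. Among glia, the sum over 8 astrocyte markers was 1098 CPM (2645 CPM in the other cells), led by the gap junction gene Gja1 with 287 CPM, and the sum over 7 oligodendrocyte markers was 3114 CPM (10092 CPM), led by the myelin gene Mbp with 1750 CPM. The precursor markers summed to 79.1 CPM, led by Lhfpl3 with 70.4 CPM, and the microglial markers to 289 CPM. The neuronal markers summed to 2197 CPM against 2545 CPM in the other cells, and their most abundant gene, the long noncoding Meg3, was found in 58.7% of the ependymal cells and 29.6% of the others. Vascular and immune transcripts were scarce: endothelial markers summed to 171 CPM (Flt1, 101 CPM), pericyte markers to 25.2 CPM (Rgs5, 7.82 CPM), fibroblast markers to 66.9 CPM (Col1a2, 47.8 CPM) and other immune markers to 59.1 CPM, where all 53 Lyz2 UMIs came from 1 cell and H2-Aa and Ccr2 were at 0. Neutrophil markers summed to 7.82 CPM (S100a8, 4.34 CPM, with Retnlg and Ly6g at 0), Schwann cell markers to 7.82 CPM (with Pmp2 at 0) and red blood cell markers to 55.6 CPM (Hbb-bs, 22.6 CPM). Oligodendrocyte and neuronal markers gave the highest of these sums, and their part in the results was not tested.

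The 30 genes with the highest fold over all other cells, among 5934 genes found in at least 10% of the ependymal cells, were 280-fold to 1120-fold higher there. All 30 had their highest level in the ependymal cluster among the 17 clusters, and 22 were above the other cells in each of the 10 mice. The genes were picked by this fold in the same cells, so these counts follow largely from the choice and are no test. Ccdc153 led with 686 CPM against 0.613 CPM, followed by Tmem212, Fam216b and Fam183b. Dynein and its helpers were among them: Dnali1, an inner arm light intermediate chain, had 217 CPM, Dynlrb2, a dynein light chain, 381 CPM, and Dnah12, an inner arm heavy chain, 341 CPM. Radial spoke heads were represented by Rsph1 with 699 CPM and Rsph4a with 231 CPM, and the nexin-dynein regulatory complex by Drc7 with 166 CPM. Gas2l2, which links microtubules at the ciliary base, had 43.4 CPM, and Mapk15, a kinase of ciliogenesis, 123 CPM. Mia, which encodes a secreted protein first known from cartilage and melanoma, had 521 CPM and spread widely between mice, with 52.7, 403 and 1314 CPM as lowest, median and highest. The other leading genes are less well known: 1700001C02Rik, 1700024G13Rik, 1700016K19Rik, 1700012B09Rik, 2410004P03Rik, C230072F16Rik, Ccdc121, Ccdc113, Efcab10, Zfp474, Lrrc74b, Gm35611 and Gm44109, with pooled levels between 43.4 and 646 CPM. Acot5, a member of a family of close paralogs, Gm10714, annotated as antisense, and Gm45783 and Gm3912, which overlap on chromosome 7, had 124, 702, 306 and 59.1 CPM, which are uncertain because reads of such genes can be assigned to a copy or neighbour. Role lists already held 12 of the 30 genes, and 4 of them stood in the ciliary lists.

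**Figure D1:**
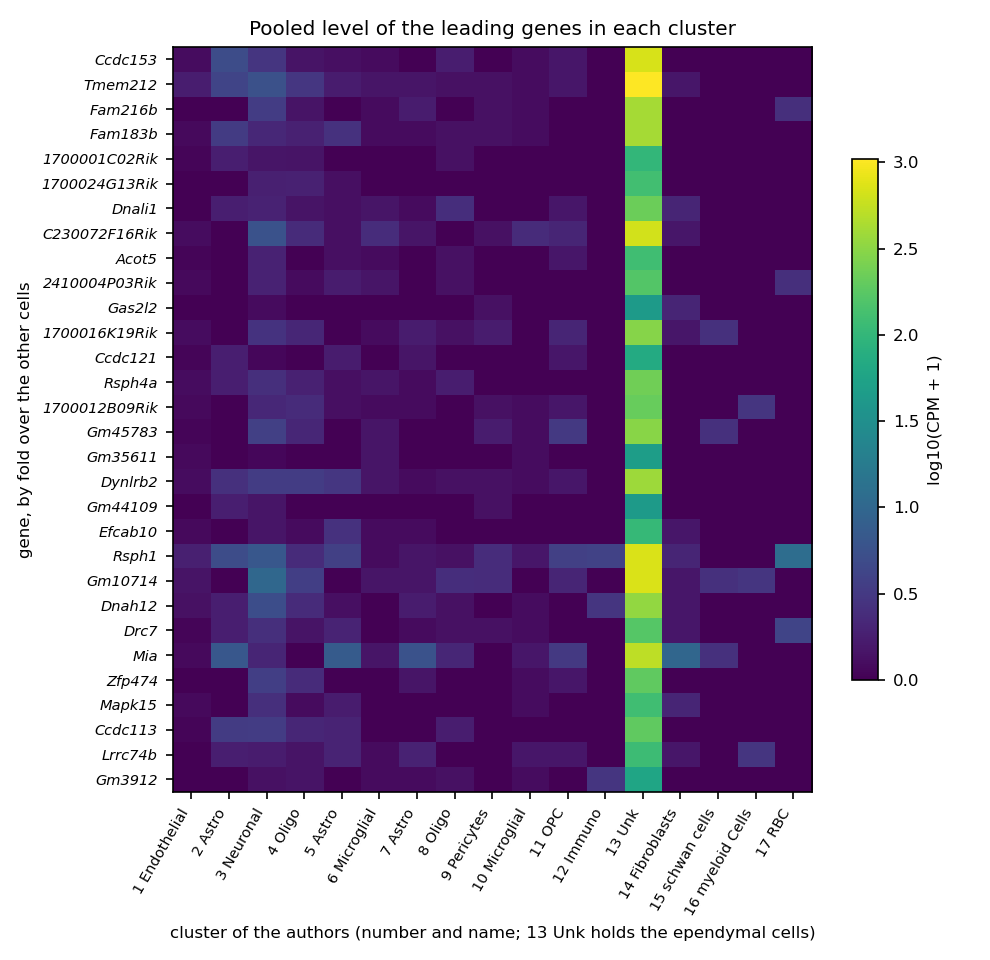
Pooled level, as the base 10 logarithm of CPM plus 1 (color), of the 30 leading genes (vertical) in the 17 clusters of the authors (horizontal, with the authors' names). Tmem212 is at 1047 CPM and Ccdc153 at 686 CPM in the ependymal cluster. Each of the 30 genes, picked by its fold over the other cells, has its highest level there.

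Beyond the leading genes, most genes of the motile cilium were found. Of 79 measured genes in 4 ciliary lists, 71 were found in at least 10% of ependymal cells and 73 had their highest level there, and together they made up 2.42% of ependymal UMIs against 0.0588% in the other cells. The transcription factors of the program summed to 1244 CPM (125 CPM in the other cells). Rfx3, which drives ciliary genes, had 536 CPM and Rfx2 186 CPM, and Myb, which acts early in multiciliated cells, 101 CPM. The upstream regulators of multiciliation were near the floor, with Gmnc at 14.8 CPM, Ccno at 1.74 CPM and Mcidas at 0.869 CPM, that is 1 UMI. Dynein arm and docking genes summed to 7246 CPM against 152 CPM, and 25 of 26 had their highest level here, among them the heavy chains Dnah6 (263, 855 and 1221 CPM as lowest, median and highest mouse), Dnah9 (263, 656 and 874 CPM), Dnah11 (413, 623 and 916 CPM) and Dnah5 (369, 518 and 725 CPM). Radial spoke and central pair genes summed to 5327 CPM against 66.6 CPM, with Spag16 of the central pair at 678, 1129 and 1860 CPM, Spef2 at 765 CPM and the adenylate kinase Ak7 at 745 CPM. Other axonemal and microtubule genes summed to 10417 CPM against 244 CPM, led by Cfap299 and by Cfap54, a central pair component, at 672, 1099 and 1657 CPM, with Cfap44 at 719 CPM and Cfap43 at 680 CPM. Every gene named in these last 3 groups was above the other cells in each of the 10 mice.

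Other genes of the ependymal cell, a list that also holds ciliary genes such as Ccdc153, summed to 15364 CPM against 1011 CPM. Dbi, which encodes the acyl-CoA binding protein, was the most abundant with 5277 CPM (2399, 5006 and 12422 CPM as lowest, median and highest mouse), and Nnat, a small membrane protein of neural tissue, had 2426 CPM and Rarres2, the chemerin precursor, 806 CPM. Pltp, a phospholipid transfer protein also listed here, had 600 CPM against 531 CPM in the other cells and was above them in 3 of 10 mice. The metallothioneins Mt3 and Mt1, which bind zinc and copper, were among the most abundant transcripts, at 5365 CPM against 419 CPM and 3747 CPM against 799 CPM. They are shared with astrocytes, where cluster 5 had 3203 CPM of Mt3 and 4231 CPM of Mt1. The stem and progenitor list summed to 2691 CPM against 1460 CPM, with 9 of its 21 genes higher than in the other cells. Only 4 of the 21 had their highest level among all clusters here. Among the 9 were Sox2 (198, 533 and 793 CPM), Sox9 (255, 368 and 574 CPM) and Id4 (81.5, 225 and 483 CPM), above the other cells in all 10 mice. Other members were lower than in the other cells after thinning, among them Prom1 (39.8 against 139 CPM), Id1 (5.68 against 117 CPM) and Id3 (0 against 163 CPM). Vim, an intermediate filament of ependymal cells and of reactive glia, had 839 CPM and ranged from 210 to 4844 CPM between mice. Cell cycle genes summed to 664 CPM against 369 CPM, mostly from Ccnd2 (423 CPM), while Mcm4 (38.2 CPM), Mcm6 (35.6 CPM) and Hmgb2 (53.9 CPM) were low. Of the 21 genes, 19 had a UMI, with Mki67 found in 3 cells and Top2a in 4, and Birc5 and Ube2c were at 0.

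Other groups of genes were less specific to these cells. Transporters and junction genes summed to 3386 CPM against 5921 CPM: the bicarbonate transporter Slc4a4 had 494 CPM against 617 CPM, while the connexin Gjb2 and the claudin Cldn1 were at 0. Wnt and planar polarity genes, the pathway of Ryk, summed to 2296 CPM against 2143 CPM. Celsr1, a polarity cadherin that aligns cilia, had 122 CPM and a 41.0-fold higher level than in the other cells, Fzd3, a Wnt and polarity receptor, 385 CPM against 40.0 CPM, Prickle2 421 CPM against 237 CPM, the Wnt secretion factor Wls 242 CPM against 122 CPM and Ctnnb1 159 CPM against 242 CPM, with Sfrp2 at 0. Secreted proteins summed to 4840 CPM against 12118 CPM. Within them Clu, a chaperone found in cerebrospinal fluid, had 2001 CPM against 271 CPM, and was shared with astrocyte cluster 5, which had 1474 CPM. Apoe, the lipid carrier, had 793 CPM against 4856 CPM, Psap 564 CPM against 631 CPM and Cst3 492 CPM against 3689 CPM, and Shh, Igf2, Ttr and Gdf15 were at 0. The injury response list summed to 2275 CPM against 3550 CPM, with Ifitm3, an interferon-induced gene, at 980 CPM, Anxa2 at 189 CPM, Gfap at 158 CPM, S100a6 at 129 CPM and Lcn2 at 0. Pooled, 4 of its 25 genes were higher than in the other cells. After thinning, Ifitm3 (835 against 246 CPM) and Anxa2 (188 against 77.6 CPM) were higher. Gfap (244 against 313 CPM) and S100a6 (119 against 161 CPM) were lower. Immediate early genes summed to 1138 CPM against 2028 CPM, with Jund at 389 CPM, Jun at 235 CPM, Fos at 111 CPM and Btg2 at 93.0 CPM.

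Promoters were read for the leading and ciliary genes because these genes were high together and because Rfx factors are known to bind an X-box. In windows of 300 bases (250 before to 50 after the first start listed for each gene, RefSeq, GRCm38.p6), searched on both strands, the letters GTTNCCATG were found in 1 of 19 leading genes (5.26%), 6 of 63 ciliary genes (9.52%) and 1.92% of all 27025 promoters. The shorter core GTTGCC was found in 6 of the 19 (31.6%), 27 of the 63 (42.9%) and 12.7% of all promoters. The forkhead letters GTAAACA were found in 1 of the 19 (5.26%), 3 of the 63 (4.76%) and 3.55% of all promoters. A match describes the letters and is no evidence of a bound site. The 250 bases before the start are shown for the 3 leading genes of highest fold whose core lay wholly before the start, chosen after the matches were seen, with the core in capitals: Ccdc153 at chr9:44240427-44240676 on the plus strand, Fam183b at chr11:58801961-58802210 on the minus strand and 1700012B09Rik at chr9:14771031-14771280 on the minus strand, all 5′ to 3′.
Ccdc153: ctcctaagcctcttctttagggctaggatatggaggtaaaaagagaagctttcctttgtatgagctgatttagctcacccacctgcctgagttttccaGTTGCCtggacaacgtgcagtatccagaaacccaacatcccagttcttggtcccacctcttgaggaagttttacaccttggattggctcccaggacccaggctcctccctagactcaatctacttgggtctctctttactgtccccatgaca
Fam183b: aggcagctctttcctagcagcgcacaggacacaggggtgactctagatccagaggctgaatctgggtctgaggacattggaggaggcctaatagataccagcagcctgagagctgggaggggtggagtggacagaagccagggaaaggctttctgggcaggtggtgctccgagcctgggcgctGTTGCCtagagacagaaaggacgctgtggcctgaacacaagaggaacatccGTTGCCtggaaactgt
1700012B09Rik: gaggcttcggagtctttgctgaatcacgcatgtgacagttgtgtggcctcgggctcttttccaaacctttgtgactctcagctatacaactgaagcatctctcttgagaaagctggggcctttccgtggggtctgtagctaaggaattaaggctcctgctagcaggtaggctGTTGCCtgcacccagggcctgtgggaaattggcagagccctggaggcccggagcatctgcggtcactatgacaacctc

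The cells of the ependymal cluster differed among themselves in how much of their RNA was ciliary. The share of a cell's UMIs in the 4 ciliary lists ran from 0.258% to 5.26%, with a median of 2.19% and quartiles of 1.34% and 3.12%, while the other cells had a median of 0% and a maximum of 1.63%. Pooled within a mouse, the share was 1.93% and 1.87% in the WT uninjured mice and 3.29% and 1.72% in the cKO uninjured mice. A limit of 1%, set after the values were seen, left 42 cells under it, 29 cells lying within 0.25 of it on either side. These 42 cells came from 10 mice, with 16 of the 32 ependymal cells of WT 14 d replicate 2 and 10 of the 28 of cKO 1 d replicate 2 among them. Over all mice they had a median of 2136.5 UMIs against 1605 in the other 229. Within mice the order was mostly the reverse: of the 9 mice with at least 10 ependymal cells that held both kinds, 6 had the lower median in the cells under the limit, as in WT 14 d replicate 2 with 4225.5 UMIs against 10264. An ependymal marker UMI was present in 24 of the 42 and in 212 of the 229. The difference was not in ciliary RNA alone: pooled over the cells, Dbi had 347 CPM against 6216 CPM, Nnat 190 CPM against 2852 CPM, and the 4 markers took 0.0364% of UMIs against 0.415%. Outside the cluster, Dbi had 354 CPM, near the level under the limit, and Nnat had 34.1 CPM, below it. Whether each of the 42 cells is an ependymal cell was not tested. The pooled levels under the limit weigh WT 14 d replicate 2 most, where 1 of the 16 cells held 48646 UMIs. As medians of cells, the 4 markers took 0.0235% against 0.349%. Foxj1 and Cfap299 among them also stand in the ciliary lists that set the limit, so part of the marker difference was fixed by it. Oligodendrocyte markers took a median of 0.921% of their UMIs against 0.129%, neuronal markers 0.390% against 0.0782% and astrocyte markers 0.131% against 0.0683%. The median in the cells under the limit was the higher in 8 of the 9 mice for oligodendrocyte markers and in 7 of the 9 for neuronal markers. Only 1 cell lay under the limit in WT 1 d, cKO 1 d and WT 7 d replicate 1. WT 14 d replicate 1 and cKO 14 d replicate 2 each held 2 such cells. Medians in these mice, also of UMIs, thus rest on 1 or 2 cells. The part of oligodendrocyte and neuronal transcripts in the clustering was not tested.

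**Figure D2:**
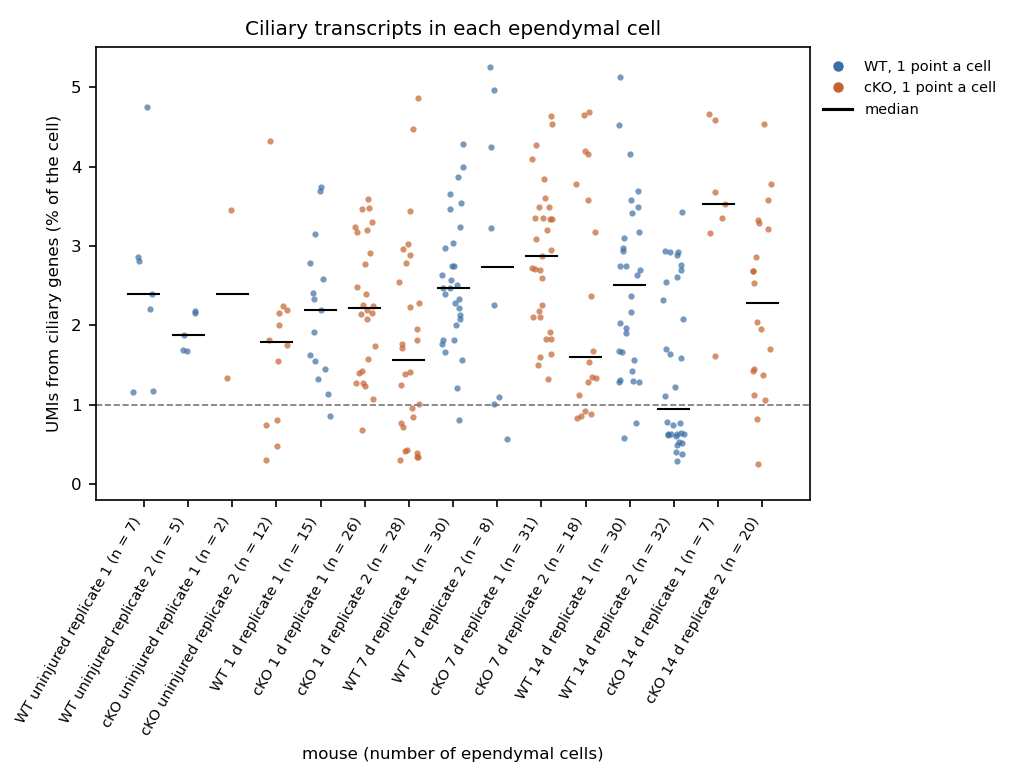
Percent of UMIs from the 79 ciliary genes in each ependymal cell (vertical), by mouse (horizontal, WT blue and cKO orange, 1 point a cell, black line the median of the mouse, dashed line 1%). The cells of WT 14 d replicate 2 fall on both sides of the dashed line, 16 under it and 16 above it.

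Injured mice had a larger share of ependymal cells than uninjured mice. In the uninjured mice, ependymal cells made up 0.714% and 0.361% of the cells of the WT mice and 0.962% and 0.969% of the cKO mice (mean 0.752%, SD 0.286, n = 4). In the 11 injured mice the lowest share was 0.617%, the median 1.52% and the highest 2.96% (mean 1.71%, SD 0.720), so that 9 of 11 lay above all 4 uninjured mice and the groups overlapped. The difference was 0.961 percentage points, and an exact two-sided permutation test over mice gave p = 0.0242 (1365 arrangements). By stage, the mean share was 1.70% at 1 d (n = 3), 1.59% at 7 d (n = 4) and 1.84% at 14 d (n = 4). Within replicate 1, which the deposited table marks as a batch, the difference was 1.06, and within replicate 2 it was 0.823. The call was lost with cells of at least 1000 UMIs (1.67, exact permutation p = 0.0974), without the 4 libraries that share cells (0.822, exact permutation p = 0.0970), without WT uninjured replicate 1 (0.948, exact permutation p = 0.0522) and without WT uninjured replicate 2 (0.831, exact permutation p = 0.0742). With barcodes found in 1 library only it was 0.843 (exact permutation p = 0.0396), and taking conditions from the cell names 0.972 (exact permutation p = 0.0418). A share also depends on how many cells of other kinds were recovered, and more ependymal cells cannot be told apart from fewer others.

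**Figure D3:**
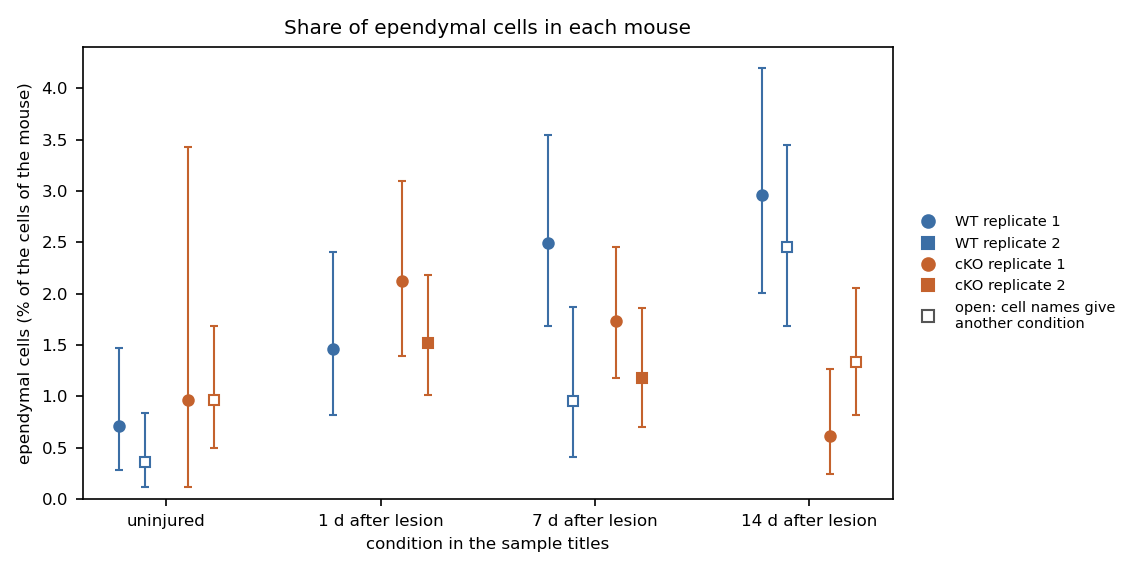
Ependymal cells as a percent of all cells of a mouse (vertical) by stage (horizontal), WT blue and cKO orange, circles replicate 1 and squares replicate 2, open where the cell names give another condition, with 95% binomial intervals. The 4 uninjured mice lie between 0.361% and 0.969%, the WT mice at 14 d at 2.96% and 2.45% and the cKO mice at 14 d at 0.617% and 1.34%, and WT 1 d replicate 2 with 1 cell is left out.

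Between the genotypes after injury, the share did not differ beyond the spread between mice. Injured WT mice had a mean of 2.06% (SD 0.826, n = 5) and injured cKO mice 1.42% (SD 0.513, n = 6). Averaged over the 3 stages, cKO minus WT was -0.544, with an exact two-sided permutation p = 0.231 (108 arrangements within stages). At 1 d the WT mouse had 1.46% and the cKO mice 2.13% and 1.52%, at 7 d the WT mice had 2.49% and 0.952% and the cKO mice 1.74% and 1.18%. At 14 d both WT mice (2.96% and 2.45%) were above both cKO mice (0.617% and 1.34%), with a difference of -1.73, while 1 mouse of each of these pairs carries cell names of another condition. Taking conditions from the cell names, the 14 d difference was -1.42 from 1 WT and 2 cKO mice. Counting only cells with at least 1% ciliary UMIs it was -1.08, with 2.76% and 1.23% in the WT mice and 0.617% and 1.20% in the cKO mice. With 2 mice a group, an exact permutation test within a single stage cannot reach 0.05.

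Expression was compared between mice by summing the UMIs of the ependymal cells of each mouse. The 10 mice with at least 10 ependymal cells entered, 9 of them injured and 1 uninjured (cKO uninjured replicate 2, which the cell names call WT 7 d), and 2853 genes were tested. Every contrast with uninjured mice thus rests on this mouse. Single genes are set beside a fit of the 14 mice with at least 5 ependymal cells, in which 3 uninjured mice and 955 genes remained. Normalized CPM are scaled to the genes tested in a fit, and CPM before normalization to all UMIs. CPM of the fit of 10 mice, of the fit of 14 mice and before normalization are thus on different scales. Gpcpd1, 4930445E18Rik, Hmcn1, Stag2, Adamts6, Zbtb7c, Gm10076 and Gm13341 have no value in this larger fit of 14 mice. The signs and medians of gene lists come from the 10 mice only and have no such counterpart.

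After injury, edgeR called 0 of 2853 genes (0%) at an adjusted p of 0.05 between injured and uninjured mice, with 134 genes whose unadjusted p was under 0.05, while DESeq2 called 0 and had 58 such genes. Among the genes with the smallest p that did not pass, Trps1, a zinc finger transcription factor, had 2 UMIs (84.6 normalized CPM) in the uninjured mouse and 381, 634 and 863 CPM as the lowest, median and highest of the 9 injured mice (edgeR Benjamini-Hochberg adjusted p = 0.609). Over the injured mice together its level was 7.25-fold higher, with a 95% counting interval of 2.00 to 60.1. All injured mice were above the uninjured mouse for Trps1, and with the 3 uninjured mice of the larger fit the log2 fold change was 1.72. On the scale of that fit these 3 mice had 305, 451 and 119 CPM, where 119 CPM is the mouse given above with 84.6 CPM. In cKO uninjured replicate 1, whose 2 cells entered neither fit, Trps1 had 368 CPM before normalization. Zfpm2, a cofactor of GATA factors, had 0 UMIs in the uninjured mouse and 210, 456 and 986 CPM in the injured mice, at least 4.01-fold higher against a floor of 3 counts in that library. The other uninjured mice did hold Zfpm2, at 914 and 301 CPM on the scale of the larger fit, and that fit gave 0.80. Lin7a, a scaffold of polarity complexes, likewise had 0 UMIs in that mouse and was at least 2.85-fold higher after injury, while the larger fit gave 1.37. The other uninjured mice held 6, 1 and 16 UMIs of Lin7a, and cKO uninjured replicate 1, with 654 CPM before normalization, was above every injured mouse. Lower after injury were Gpcpd1, an enzyme of choline metabolism, with 889 CPM uninjured against 35.2, 106 and 140 CPM (log2 fold change -3.22, SE 0.62, edgeR Benjamini-Hochberg adjusted p = 0.162), the long noncoding 4930445E18Rik with 635 CPM against 0, 17.6 and 22.4 CPM, and the matrix gene Hmcn1 with 889 CPM against 0, 140 and 222 CPM. Their UMIs were 21, 15 and 21 in the uninjured mouse that entered and 9, 0 and 3 in WT uninjured replicate 1, so these values rest largely on 1 mouse. Gpcpd1 and Hmcn1 had their highest level in endothelial cluster 1, at 1396 and 1441 CPM. With the replicate number as a block, edgeR called 6 genes, Apoe, Gpcpd1, Hmcn1, Ubb and Zfpm2 among them. The oligodendrocyte markers summed to 6177 CPM in the uninjured mouse and to between 702 and 5579 CPM in the 9 injured mice, and the endothelial markers to 527 CPM against 0 to 330 CPM. Neuronal markers went both ways. Rbfox1 had 3 UMIs (127 normalized CPM) against 210 to 1349 CPM (5.68-fold higher over the injured mice together, 95% counting interval 1.93 to 27.7). Snap25 had 381 CPM against 0 to 246 CPM. The part of all these markers in the values above was not tested.

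Of the 79 ciliary genes 60 were tested, 41 with a positive and 19 with a negative log2 fold change after injury, median 0.30 against 0.04 over all genes (-0.02 with the 125 genes at 0 UMIs in the uninjured mouse at their bound). The uninjured mouse that entered had the lowest pooled ciliary share of the 15 mice, 1.72%, with 4 of its 12 cells under 1%. The other uninjured mice had 1.93%, 1.87% and 3.29%. Cfap77, a microtubule inner protein, had 3 UMIs (127 CPM) in the uninjured mouse and 292, 399 and 599 CPM in the injured mice (3.09-fold higher over these together, 95% counting interval 1.05 to 15.1, and a log2 fold change of 1.32 in the larger fit), and Spag6l, of the central pair, 212 CPM against 408, 563 and 775 CPM (log2 fold change 1.48, SE 0.65, and 1.66 in the larger fit). Both were higher in every injured mouse that entered, and neither passed the adjusted test. Medians of the ciliary groups were 0.35 for the transcription factors (3 tested), 0.16 for dynein and docking (20 tested), 0.20 for spokes and central pair (10 tested) and 0.33 for the other axonemal genes (27 tested). The other ependymal genes had a median of -0.24 (7 of 20 positive), the progenitor list 0.43 (5 of 7), the cell cycle list -1.58 (0 of 2), the transporters and junctions -0.67 (1 of 11), the Wnt and polarity list 0.20 (4 of 5) and the secreted list -0.57 (1 of 8). For the injury response list the median was 0.49 (7 of 11), also with the 2 genes that were at 0 UMIs in the uninjured mouse set to their bound. For the immediate early list (4 of 5 positive) 3 genes were at 0 in that mouse, and with these at their bound the median was 0.09. For some lists the sign depended on the stage: at 1 d the medians were -0.09 for the transcription factors, -0.07 for dynein and docking, -0.47 for the progenitor list (2 of 7 positive) and -0.12 for the Wnt and polarity list. At 1 d they stayed positive for spokes and central pair (0.12), other axonemal genes (0.20) and all ciliary genes together (0.16, 35 of 60 positive). The other ependymal, cell cycle, transporter and junction, and secreted lists had negative medians at 1 d, 7 d and 14 d. For the injury response list the median was 0.14 at 7 d and -0.21 at 14 d (5 of 11 positive, -0.27 with bounds), and for the immediate early list with bounds -0.01 at 1 d, 0.21 at 7 d and -0.17 at 14 d. The 30 leading genes, of which 25 were tested, had a median of -0.06, and of 0.11 at 14 d.

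At 1 d, edgeR called 0 of 2853 genes (0%), while 102 had an unadjusted p under 0.05, and by DESeq2 the numbers were 0 and 53. In the injury response list 10 of 11 tested genes were positive at 1 d, with a median of 2.23 (2.20 with genes at their bound), against 0.01 (-0.04) over all genes tested. S100a6, a calcium-binding protein of reactive cells, had 0 UMIs in the uninjured mouse and 1389, 3296 and 510 CPM in the 3 mice at 1 d, at least 13.6-fold higher against the floor of 3 counts. At 7 d it had 222, 387 and 52.8 CPM and at 14 d 78.5, 49.6 and 89.8 CPM, so all 3 mice at 1 d lay above the 6 later mice that entered. In the larger fit the 3 uninjured mice had 152, 150 and 0 CPM of S100a6, with a log2 fold change of 4.82 (edgeR Benjamini-Hochberg adjusted p = 0.196). Gfap, the intermediate filament of reactive glia, had 212 CPM in the uninjured mouse and 1470, 1473 and 419 CPM at 1 d, against 88.8, 70.3 and 229 CPM at 7 d (log2 fold change at 1 d 2.23, SE 0.90, and 3.32 in the larger fit). Vim, described above, had 1058 CPM uninjured and 5636, 6452 and 1750 CPM at 1 d (1.91, SE 0.92, and 2.18 in the larger fit). Cnn3, an actin-binding calponin, had 3 UMIs (127 CPM) against 980, 1192 and 638 CPM (6.20-fold higher over these together, 95% counting interval 2.03 to 30.8, and a log2 fold change of 1.68 in the larger fit), while cKO uninjured replicate 1 had 654 CPM before normalization. Neutrophil markers in these 3 mice were at 0, 0 and 47.2 CPM and other immune markers at 0 in each, and their part in the S100a6 values was not tested. Of these 3 mice, WT 1 d replicate 1 and cKO 1 d replicate 1 belong to the libraries that share cells, and the values of cKO 1 d replicate 2, which does not, were the lowest of the 3 for each of these 4 genes. With the replicate block edgeR called 1 gene, Apoe.

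At 7 d, edgeR called 0 of 2853 genes (0%), while 176 had an unadjusted p under 0.05, and by DESeq2 the numbers were 0 and 91. Apoe had 3724 CPM in the uninjured mouse and 399, 668 and 335 CPM at 7 d (log2 fold change -3.02, SE 0.70, edgeR Benjamini-Hochberg adjusted p = 0.378). The 3 uninjured mice of the larger fit had 3502, 3158 and 5224 CPM of Apoe, each above every mouse at 1 d and 7 d there, and the log2 fold change was -2.47. In cKO uninjured replicate 1, whose 2 cells entered neither fit, Apoe had 1 UMI. Apoe and Zfpm2 were called by edgeR with the replicate block. Apoe was at 40705 CPM in microglial cluster 10, and the part of free RNA in the ependymal values was not tested. 4632427E13Rik was at 0 UMIs in the uninjured mouse, which puts the 7 d mice at least 3.34-fold higher, and the larger fit gave a log2 fold change of 1.05, with 533 CPM in WT uninjured replicate 1 against 365 to 739 CPM in the 7 d mice. Cfap299 had 1100 CPM uninjured and 3062, 3340 and 3310 CPM at 7 d (1.66, SE 0.66). In the larger fit the log2 fold change was 0.96, and WT uninjured replicate 1 had 3273 CPM of Cfap299. Before normalization cKO uninjured replicate 1 had 2249 CPM. These last CPM values are on other scales than those of the 7 d mice given here. Of the 60 ciliary genes 41 were positive, median 0.44 against 0.04 over all genes, and of the 11 transporters and junction genes 10 were negative, median -0.96.

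At 14 d, edgeR called 0 of 2853 genes (0%) against uninjured, while 122 had an unadjusted p under 0.05, and by DESeq2 the numbers were 0 and 50. Ubb, a polyubiquitin gene, had 1947 CPM in the uninjured mouse and 561, 513 and 393 CPM at 14 d (log2 fold change -2.25, SE 0.63, and -1.85 in the larger fit). On the scale of that fit the uninjured mice had 914, 4210 and 2731 CPM of Ubb. Of the 60 ciliary genes 48 were positive, median 0.40 against 0.13 over all genes tested. Between 14 d and 7 d, edgeR called 0 of 2853 genes (0%), while 58 had an unadjusted p under 0.05, and by DESeq2 the numbers were 0 and 38. Apoe had 3184, 853 and 976 CPM at 14 d against the 3 lower values at 7 d (1.83, SE 0.60, edgeR Benjamini-Hochberg adjusted p = 0.999), and was the 1 gene called with the replicate block. The highest value was that of WT 14 d replicate 1, where the microglial markers summed to 502 CPM and other immune markers to 456 CPM before normalization, against at most 291 and 23.3 CPM at 7 d, and their part was not tested. Stag2, a cohesin subunit, had 303, 195 and 325 CPM at 14 d against 44.4, 105 and 141 CPM (1.64, SE 0.57), and Timp2, an inhibitor of metalloproteinases, 662, 397 and 516 CPM against 178, 316 and 194 CPM (1.34, SE 0.48). For both genes the mice at 14 d that entered were above those at 7 d that entered. With the other mice this order did not hold: before normalization WT 7 d replicate 2 had 184 CPM of Stag2 and 306 CPM of Timp2, against 131 and 267 CPM in WT 14 d replicate 2, and the larger fit gave 0.67 for Timp2. All 8 tested genes of the secreted list were positive, median 0.65 against 0.06 over all genes. Clu was at 5864, 2458 and 3501 CPM against 1953, 1758 and 1444 CPM, while WT 7 d replicate 2 had 4407 CPM on the scale of the larger fit. Luzp1, an actin- and centrosome-associated gene, was lower at 14 d in the mice that entered (191, 220 and 123 CPM against 577, 316 and 229 CPM, log2 fold change -1.26). In the larger fit it was -0.87, with WT 7 d replicate 2 at 152 CPM on the scale of that fit. Gm13340 and Gm13341 differed by library: at 7 d they were read in both replicate 1 mice, which share cells (399 and 492 CPM for Gm13340), and were at 0 in cKO 7 d replicate 2, and at 14 d Gm13340 had 0, 3.54 and 0 CPM.

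Between cKO and WT across stages, edgeR called 0 of 2853 genes (0%), while 69 had an unadjusted p under 0.05, and by DESeq2 the numbers were 0 and 37. The smallest p belonged to Adamts6, a secreted metalloproteinase, with 0, 88.8, 78.5 and 39.0 CPM in the 4 WT mice (at 1 d, at 7 d and both at 14 d) and 169, 215 and 359 CPM as lowest, median and highest of the 6 cKO mice (log2 fold change 2.53, SE 0.56, edgeR Benjamini-Hochberg adjusted p = 0.756). The 6 cKO mice that entered were above the 4 WT mice that entered, but the difference did not pass the test over all genes. The mice with fewer cells broke this order: before normalization the WT uninjured mice had 174 and 152 CPM of Adamts6, against 40.9 and 100 CPM in the cKO uninjured mice and 85.5 CPM in cKO 14 d replicate 1. Dnah7a, an inner arm dynein chain whose close paralogs Dnah7b and Dnah7c make its counts uncertain, had 163, 355, 292 and 297 CPM in the WT mice and 210, 391 and 1010 CPM in the cKO mice (1.26, SE 0.37, and 0.75 in the larger fit). Zbtb7c, a zinc finger factor, had 81.7, 0, 123 and 138 CPM against 84.6, 202 and 314 CPM (1.60, SE 0.56). Lower in the cKO mice were Ly6h, a neuronal membrane-anchored protein (log2 fold change -1.65, SE 0.61), the ribosomal protein gene Rps2 (-0.95, SE 0.36) and Gm10076 (-1.69, SE 0.64). For each of these genes other than Adamts6 the genotypes also overlapped among the mice that entered.

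By group, 47 of the 60 ciliary genes were positive in cKO minus WT, median 0.16 against 0.04 over all genes tested, with 18 of 20 dynein and docking genes among them. The pooled ciliary shares of the genotypes overlapped, with 2.53%, 2.80%, 2.61% and 1.99% in the WT mice and 1.72% to 3.12% in the cKO mice. The lowest WT share was that of WT 14 d replicate 2, where 16 of 32 cells were under 1%. Of the list of other ependymal genes, which also holds ciliary genes such as Ccdc153, 17 of 20 were negative, median -0.36. Ccdc153 had 1062, 1154, 2007 and 938 CPM in the WT mice and 370, 625 and 1227 CPM in the cKO mice (-0.90, SE 0.41, and -0.74 in the larger fit), and Cfap47, a central apparatus gene, had 0, 355, 280 and 390 CPM against 281, 426 and 757 CPM (1.19, SE 0.43, and 0.85 in the larger fit). Neither Ccdc153 nor Cfap47 passed the test, and the genotypes overlapped for both. The Wnt and polarity list had 4 of 5 genes positive, median 0.26, and the injury response list 8 of 11 negative, median -0.30. With the replicate block edgeR called 8 genes, Adamts6 as higher in cKO and 7 as lower, Ctnna3, Dgki, Dlg2, Dscaml1, Pde4b and Slc24a2 among them, of which Dlg2 encodes a synaptic protein. These 6 had their highest level in astrocyte, oligodendrocyte, precursor or neuronal clusters. The neuronal markers summed to 1053, 2242, 1438 and 2908 CPM in the WT mice and to 653, 579, 2758, 1122, 3145 and 1569 CPM in the cKO mice, and their part in these values was not tested.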

How the data were processed

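Single cells of mouse spinal cord were sequenced in 16 libraries, 1 per mouse. The authors aligned reads to mm10 (GRCm38) with Cell Ranger and made the cell table with Seurat in R 4.1.2, per the submitters' processing notes. The deposited matrix holds counts of UMIs for 55487 genes in 18203 cells, and the deposited cell table gives the mitochondrial share of each cell as a percent. The highest mitochondrial share of any cell was 24.992% and the fewest genes 201, so cells had been filtered before deposition. No cell was removed here, and no doublet caller was run.

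Ependymal cells were the cells of the deposited cluster 13. The members, their markers and the gene lists were chosen with earlier results of these data known. Groups followed the sample titles. Levels are counts per 1e+06 UMIs (CPM), pooled over the cells or per mouse, and a count of 0 was given a floor of 3 counts per library. Against 1 to 3 counts, the ratio over pooled counts is given with an exact binomial interval, which covers counting and not the spread between mice. In the mice that entered the expression fit, 3 counts equal 10.6 to 245 normalized CPM, and lower levels were not detectable there. UMIs of the ependymal cells were summed per mouse and fitted with edgeR 4.0.16 (TMM, filterByExpr, quasi-likelihood test, stage and genotype as terms) in mice with at least 10 such cells, with Benjamini-Hochberg adjustment over all genes tested and a threshold of 0.05. DESeq2 1.42.0 was run on the same counts in R 4.3.3, and both were tested on simulated data. There both recovered a much smaller part of the changed genes for injured minus uninjured than for cKO minus WT. A lack of calls thus does not show that genes were unchanged. Shares of cells were compared in mice with at least 50 cells by exact permutation tests, with 95% Clopper-Pearson intervals, in Python 3.11.15 with scipy 1.17.1. Thinning drew 1000 UMIs from each cell that had as many.

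The genes named were the 4 markers and Ryk, the 30 genes with the highest fold over the other cells among those in at least 10% of ependymal cells, up to 4 most abundant members of each list, the most abundant marker of each other class and, as no gene was called, the 3 genes with the smallest p in each direction of each contrast. Members of the lists outside this rule (Cfap77, Spag6l, Cfap47, Celsr1, Pltp, Gmnc, Ccno, Mcidas, Mki67, Top2a, Clic6, Prom1, Id1, Id3, Mt3 and Mt1), and the genes named as called under an alternative, were chosen after their values were seen. Some genes within the rule, and some called with the replicate block, are not reported here. Gene positions came from GENCODE vM21 and promoters from RefSeq. The lists covered ciliary transcription, dynein and docking, spokes and central pair, other axonemal genes, other ependymal genes, progenitor, cell cycle, injury response, immediate early, transporter and junction, Wnt and polarity, and secreted genes, besides markers of other classes.

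Replicate numbers equal the batch column of the deposited cell table in all 16 mice, so they mark a batch. In 3 pairs of conditions the correlation across genes of same-numbered deviations had a median of 0.238, and 2 of 3 pairs were above 0.1. The number was therefore also fitted as a block. Alternatives changed the count filter, the least number of cells, the cells that entered, the conditions (cell names), the tool and the mice left out. Those on the ciliary share of a cell, shared barcodes, and combinations with at least 5 cells were chosen after seeing the data.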

Additional observations from a re-analysis of the deposited data

Results flagged for a closer look

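The difference in ependymal share between cKO and WT mice had opposite signs at different stages. Uninjured, both cKO mice were above both WT mice, with a difference of 0.428 percentage points, and at 1 d both cKO mice were above the 1 WT mouse, with a difference of 0.358. At 14 d both cKO mice were below both WT mice, with a difference of -1.73. Whether the genotype difference at 14 d differs from that in uninjured mice or at 1 d was not tested. With the conditions of the cell names the difference was -0.0529 uninjured, 0.614 at 1 d and -1.42 at 14 d, and with barcodes found in 1 library only it was 0.427, 0.881 and -1.69. Counting only cells with at least 1% ciliary UMIs it was 0.266, 0.144 and -1.08, and in uninjured mice and at 1 d the genotypes then overlapped. With cells of at least 1000 UMIs it was 0.729, -1.32 and -1.56, so the sign at 1 d was reversed. No mouse stood far from its group in the 9 groups checked for this.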

How the results depend on the processing

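The injured minus uninjured share of ependymal cells (0.961) was positive under every alternative run. It lost the threshold with cells of at least 1000 UMIs (1.67, exact permutation p = 0.0974) and without the 4 libraries that share cells (0.822, exact permutation p = 0.0970). Leaving out 1 mouse gave 0.831 to 1.07, and the call was lost without WT uninjured replicate 1 (0.948) or WT uninjured replicate 2 (0.831). The replicate block gave 0.942 (exact permutation p = 0.0289). The cause was not tested. The cKO minus WT share after injury (-0.544) stayed negative and without a call, with -1.53 for cells of at least 1000 UMIs, -0.627 with the replicate block (exact permutation p = 0.3125) and -0.996 to -0.288 leaving out 1 mouse.

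Calls by edgeR, 0 in each contrast, are given in the order injured, 1 d, 7 d and 14 d minus uninjured, 14 d minus 7 d, and cKO minus WT. Without the filter on low counts they were 1, 2, 7, 1, 9 and 3. With the replicate block they were 6, 1, 2, 0, 1 and 8, and with the replicate block and at least 5 cells 1, 0, 5, 1, 0 and 0. With at least 5 cells and without the libraries that share cells they were 2, 2, 4, 6, 0 and 0. Without the filter, Gm42418, Gm26870, Cmss1 and Cdk8 were among the calls. So were S100a6 at 1 d, Apoe and Zfpm2 at 7 d, and 4930445E18Rik after injury and at 7 d. The 6 calls at 14 d in the last of these settings were Abcb1a, Bsg, Il1r1, Mecom, Ptprb and Slco1a4, lower after injury and each highest in endothelial cluster 1, and the part of endothelial RNA in them was not tested. DESeq2, at least 5 or 20 cells, cells with a marker UMI, cells under 10% mitochondrial UMIs, cells with at least 1% ciliary UMIs, barcodes found in 1 library, the libraries that share no cells and the cell names gave 0 wherever the contrast could be had, and leaving out 1 mouse gave 0 to 0. With at least 5 cells, leaving out 1 mouse gave 0 to 6, 0 to 1, 0 to 3, 0 to 5, 0 and 0 calls, with the 6 calls after injury found without WT uninjured replicate 2 or without cKO 1 d replicate 2. The 1 call at 1 d was S100a6, higher after injury, without cKO 1 d replicate 2. No uninjured contrast could be had with at least 20 cells, with the conditions of the cell names, with at least 1% ciliary UMIs at 10 cells or without cKO uninjured replicate 2, which leaves injured mice only. The summed level of the 4 markers was 3545 CPM pooled, 3782 CPM as a mean of mice and 3108 CPM after thinning. Foxj1 went from 363 to 205 CPM on thinning and Ccdc153 from 686 to 455 CPM, while Cfap299 went from 1448 to 1631 CPM and Tmem212 from 1047 to 818 CPM.

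The number of cells limits what was detectable. The 15 mice held 2 to 32 ependymal cells, a gene under the floor of 3 counts in a library was not measured there, and a fold against the 1 uninjured mouse with at least 10 cells rests on that mouse. The conditions of 6 mice differ between titles and cell names, and the correct ones cannot be told from these data.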
